A study of Mus musculus with 9 samples.

Results

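The genes of the cytosolic small ribosomal subunit were examined in retinal ganglion cells (RGCs, the neurons whose axons form the optic nerve) of mice with raised intraocular pressure (IOP). Members were chosen by gene symbol, as Rps followed by a number or as Rpsa, and Rps27a was left out because it codes for a ubiquitin-fused precursor. This gave 32 of the 23997 gene symbols listed. Of these, 13 code for proteins of the head of the subunit, 17 for proteins of its body and platform, and 2 (Rps27l and Rps4l) are copies of other members, Rps4l being annotated as a pseudogene in RefSeq. Fau, Rps27a and Gnb2l1 (Rack1) also give rise to small-subunit proteins but were not members by this rule.

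All mice were C57BL/6J, with an age of 8 weeks in the labels. Control eyes received saline in the anterior chamber, whereas the eyes of the Mild IOP and Moderate IOP groups received microbeads and were divided by the pressure they reached over the 2 weeks that followed. Cells were then taken from dissociated retinas by immunopanning, with a last positive step on Thy1, and polyadenylated RNA was copied from an oligo-dT primer and amplified before sequencing. Each group's RNA formed 1 pool that was split into 3 technical replicates, so the 9 libraries came from 3 pools. The Moderate IOP pool drew on fewer retinas than the other two. P-values therefore cover the technical spread between splits of a pool and not the spread between animals. In such bulk samples, fewer cells of a type and less RNA per cell cannot be told apart.

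The small (40S) subunit binds the mRNA, scans it for the start codon and holds the site where codons are read, and its head and body turn against each other as tRNAs move through. Ribosomal proteins are made in nearly equal amounts and fill much of the mRNA pool of a growing cell. Their mRNAs are short, and in mammals most begin with a C followed by an unbroken run of pyrimidines, the 5′ terminal oligopyrimidine (TOP) motif, through which mTORC1 controls how strongly they are translated. RGCs have long axons and a high demand for protein synthesis, and mTORC1 signalling is known for its role in their survival and axon growth.

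The letters around the transcription start were read for the motifs known from ribosomal protein genes. Start sites and sequences were taken from RefSeq (GRCm38.p6) and were matched for 24 of the 32 genes. A C at the start base followed by 4 pyrimidines was present in 6 of the 24 (25.0%), against 3.01% of the 27025 genes of the same table. A run of at least 8 pyrimidines that lay at least in part within 20 bases of the start was found in 11 of the 24 (45.8%), against 23.7% of all genes. In the window from 250 bases before to 50 after the start, both strands read, the ETS core CCGGAA was found in 14 of the 24 (58.3%) and in 16.7% of all genes, and the TATA box TATAAA in 2 (8.33%) and in 15.7%. These matches are descriptions of letters, not of binding. Printed here are 30 bases before and 20 after the start, 5′ to 3′ on the strand of the gene. Capitals mark the longest pyrimidine run that lies at least in part within 20 bases of the start. Rps6, Rps10, Rps18 and Rps27 show the run at the start base, Rps25 and Rps7 are the 2 genes that fell in Mild IOP, and Rpsa is the gene that differed least between the IOP groups.
Rps6 (chr4:86857348-86857397, minus strand): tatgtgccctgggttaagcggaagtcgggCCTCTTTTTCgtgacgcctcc
Rps10 (chr17:27635225-27635274, minus strand): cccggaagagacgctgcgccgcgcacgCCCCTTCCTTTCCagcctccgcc
Rps18 (chr17:33955646-33955695, minus strand): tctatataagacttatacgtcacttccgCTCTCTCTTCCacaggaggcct
Rps27 (chr3:90213629-90213678, minus strand): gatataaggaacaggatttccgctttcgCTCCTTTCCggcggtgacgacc
Rps25 (chr9:44407684-44407733, plus strand): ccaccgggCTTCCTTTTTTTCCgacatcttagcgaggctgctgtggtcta
Rps7 (chr12:28635934-28635983, minus strand): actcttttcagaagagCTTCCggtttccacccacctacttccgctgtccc
Rpsa (chr9:120127736-120127785, plus strand): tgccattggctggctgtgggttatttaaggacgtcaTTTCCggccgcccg

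Expression was deposited as FPKM (fragments per kilobase of exon, relative to the mapped fragments of the library), which is a level per length and can be set side by side between genes. The depth was not given with the FPKM, and the depth derived from their confidence intervals ran from 4920000 to 8880000 fragments per library. The study's methods give a larger number of paired-end reads per sample, and the derived values are estimates rather than the sequenced depth. Scaling used median-of-ratios factors between 0.966 and 1.04. Of the RGC markers, all 7 were above 0 in every group, and their summed level was 1431 to 1519 in Control, 1044 to 1298 under Mild IOP and 2266 to 2425 under Moderate IOP. The 4 lens crystallins summed to 292 to 348 in Control and to at most 2.24 under Mild IOP and 5.09 under Moderate IOP. The 4 microglial markers summed to at most 16.7 and the 3 endothelial ones to at most 3.24 in any library, with Cldn5 at 0 throughout.

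The 32 genes were low in Mild IOP, intermediate in Control and high in Moderate IOP. Their summed level was 5933, 6956 and 6309 scaled FPKM for Control, 4423, 3162 and 4769 for Mild IOP and 7737, 7868 and 8099 for Moderate IOP, replicates in order of their number. The groups did not overlap. In 30 of the 32 genes the group means followed this order, and the exceptions were Rps15a and Rps20, whose Mild IOP means lay just above Control. Rps27 is among the 30, but the means of its sum with Rps27rt were 607 in Control, 339 under Mild IOP and 537 under Moderate IOP. Relative to all transcripts longer than 300 nt, the genes held 1.07%, 1.22% and 1.16% of the summed FPKM for Control, 0.894%, 0.707% and 0.92% for Mild IOP and 1.26%, 1.34% and 1.36% for Moderate IOP. The sum and share of Moderate IOP replicate 3 include 539 scaled FPKM of Rps27. The other libraries hold that level mostly under Rps27rt, which is not among the 32.

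Replicate 2 of Mild IOP stood apart from the other libraries. It was the lowest of all 9 libraries for 25 of the 32 genes, and 30 genes lay below their Mild IOP mean there. The coefficient of variation between replicates had a median over the genes of 12.9% in Control, 22.4% under Mild IOP and 13.0% under Moderate IOP. The 3 libraries of Moderate IOP were each the highest for 10 genes. The order of the genes within a library was similar across libraries, with a Spearman rho between 0.566 and 0.963 over the 36 pairs of libraries, given as a description since the genes share each library.

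**Figure D1:**
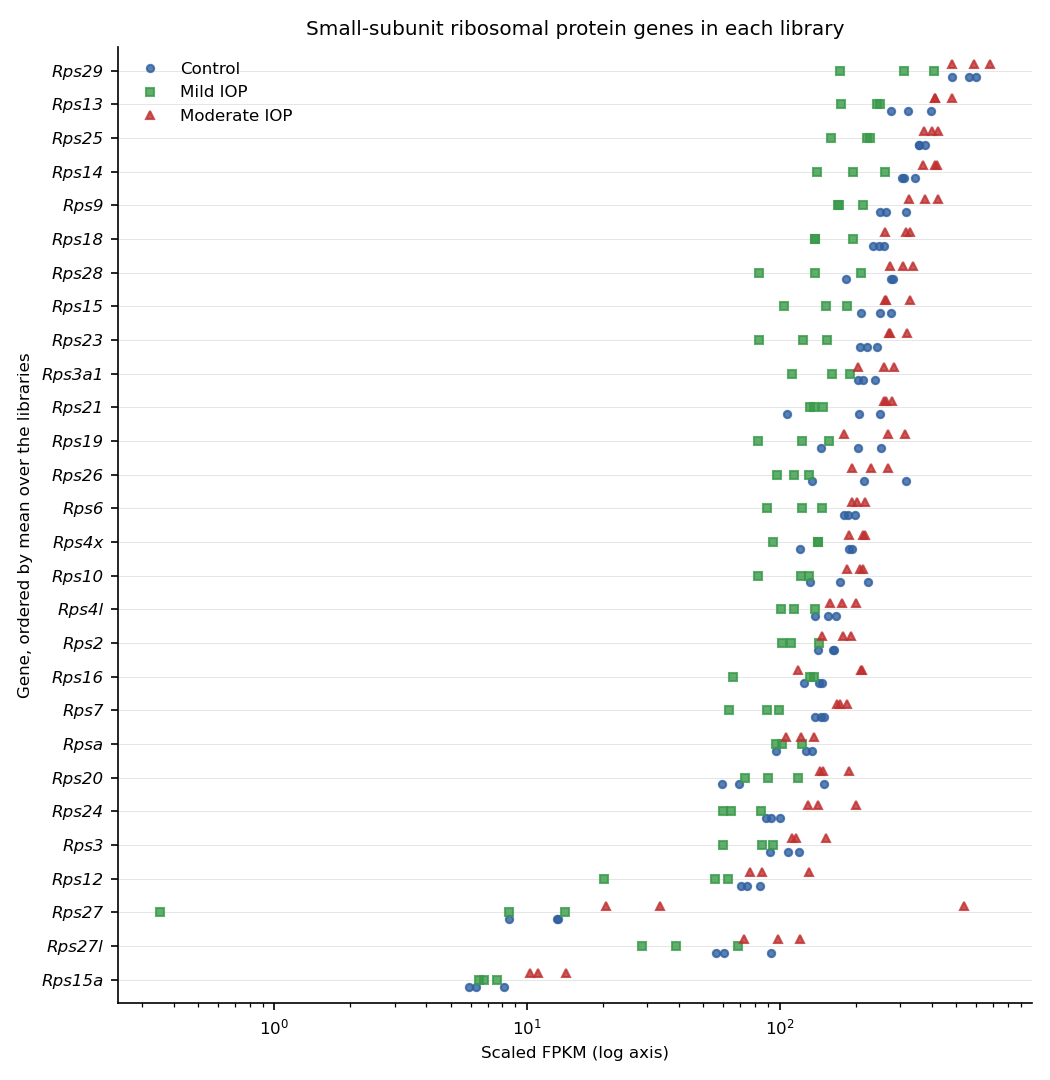
Scaled FPKM (log axis) of 28 small-subunit genes in each library, 3 points per group, genes ordered by their mean over the 9 libraries. The Moderate IOP points lie to the right of all Mild IOP points for 26 of the 28 genes, and Rps15a, and Rps27 in all libraries but Moderate IOP replicate 3, sit far to the left of the others.

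The comparison of Mild IOP with Control sets microbead-injected eyes with a small rise in pressure against saline-injected eyes from another pool. Pressure, beads and pool cannot be told apart in it. Of the 32 genes, 30 had a lower level in Mild IOP and the median log2 fold-change was −0.66 (over all 13070 tested genes, 0.01). All 32 genes passed the filter on low values and were tested. At an FDR below 0.1, 2 genes fell, Rps25 and Rps7, where 0.39% of all tested genes fell. None rose, with 0.00765% of all tested genes rising. At an unadjusted p below 0.05 there were 25 of the 32 genes, against 10.1% of all tested genes. In 20 genes all Mild IOP replicates lay below all Control replicates, which held for 9.11% of all tested genes. The call of 2 genes was not stable. Without replicate 2 of Mild IOP only Rps25 was called (0.115% of all tested genes) and the median was −0.47, whereas 10 genes were called without replicate 3 of Mild IOP (1.39% of all tested genes).

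Moderate IOP against Control is the same comparison at a larger rise in pressure, and pressure, beads and pool cannot be told apart in it either. All 32 genes had a higher level in Moderate IOP, with a median log2 fold-change of 0.29 (0.00 over all tested genes). By limma, 0 of them were called in either direction, where 0.956% of all tested genes rose and 0.888% fell, and 7 had an unadjusted p below 0.05 (21.9%, against 15.3% of all tested genes). The nearest to a call was Rps24, with an FDR of 0.103. In 10 genes, among them Rps7, Rps9, Rps13, Rps23 and Rps24, all Moderate IOP replicates lay above all Control replicates, against 9.94% of all tested genes. The counts of 32, 7 and 10 each include Rps27, which could not be read apart from Rps27rt. The sum of Rps27 and Rps27rt was lower in Moderate IOP than in Control, with a log2 fold-change of −0.19 ± 0.21 (FDR = 0.71).

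The contrast between the IOP groups was the widest. Of the 32 genes, 29 rose in Moderate IOP relative to Mild IOP and none fell, where 7.02% of all tested genes rose and 3.11% fell. The median log2 fold-change was 0.96 (−0.02 over all tested genes). In 30 genes the replicates of the groups did not overlap, which held for 14.5% of all tested genes. Rps27 is among the 30, whereas its sum with Rps27rt overlapped between the IOP groups. The genes not called were Rpsa, Rps16 and Rps20. This comparison shares the Mild IOP libraries with the first one and the Moderate IOP libraries with the second, so the 3 sets of values are not independent. Leaving out replicate 2 of Mild IOP left 14 genes higher (3.28% of all tested genes), with a median of 0.77, and leaving out replicate 2 of Moderate IOP left 15 (4.29%).

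**Figure D2:**
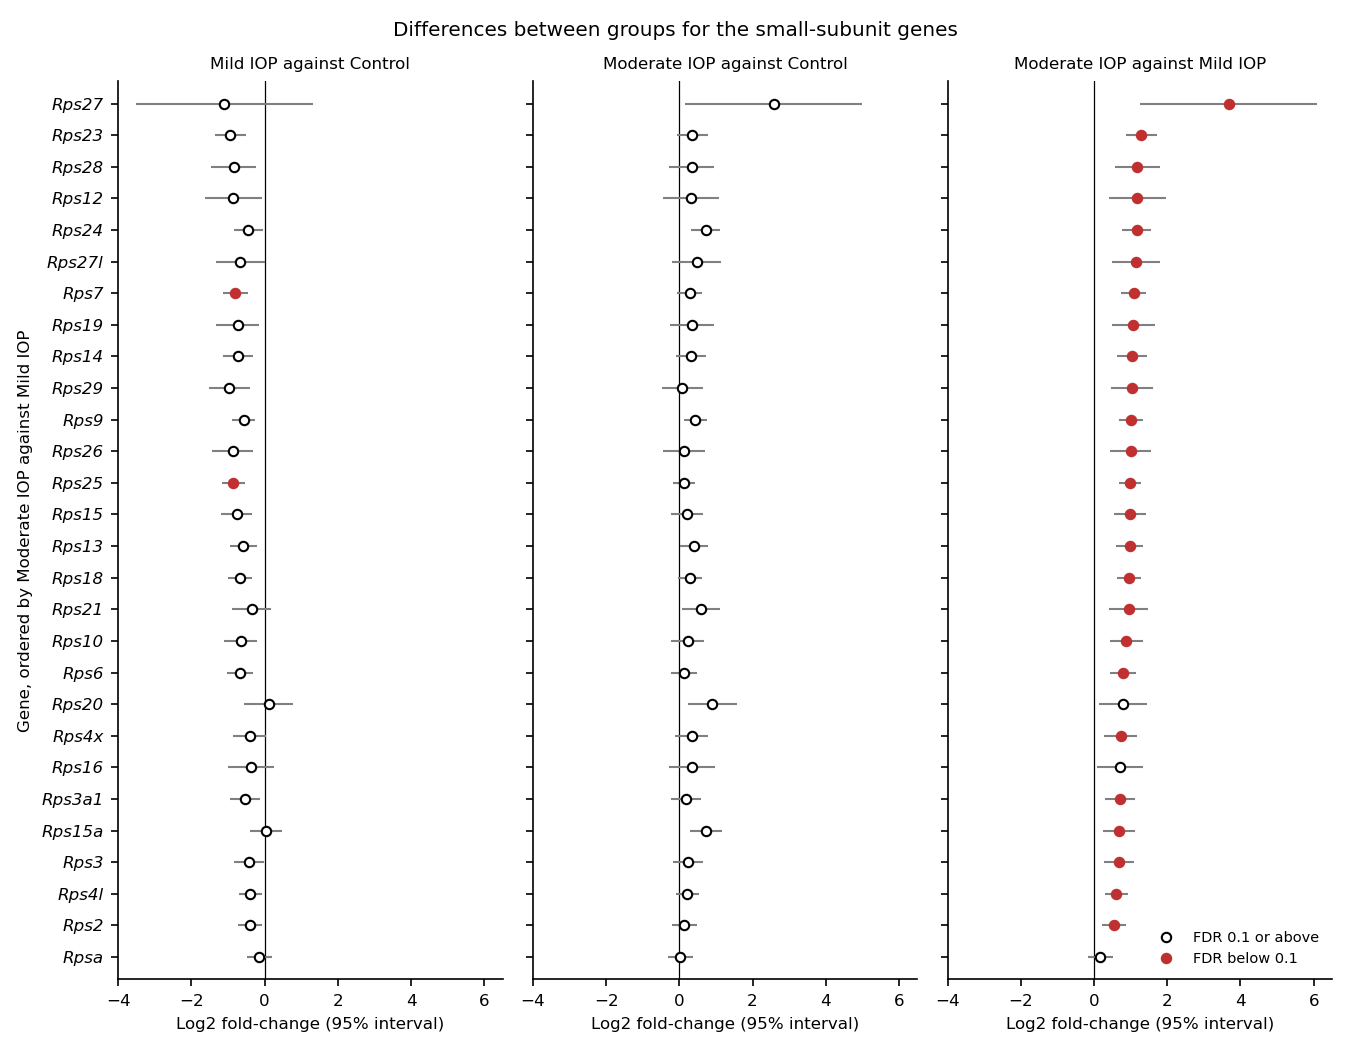
Log2 fold-change of 28 small-subunit genes with its 95% interval from limma, in 3 comparisons, with filled points for an FDR below 0.1. Filled points are 2 in Mild IOP against Control (Rps25 and Rps7), 0 in Moderate IOP against Control and 25 in Moderate IOP against Mild IOP.

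Among the 13 head proteins, 11 rose between Mild IOP and Moderate IOP, with a median log2 fold-change of 0.95 and a range from 0.68 to 1.18. Rps29, a small zinc-binding protein of the head, had the highest level of the single genes, below the sum of Rps27 and Rps27rt described further on. It stood at 483, 564 and 601 scaled FPKM for Control, at 311, 174 and 408 for Mild IOP and at 482, 586 and 684 for Moderate IOP. Control and Moderate IOP overlapped and Mild IOP lay below both, with a log2 fold-change of 1.04 ± 0.26 (SE) between the IOP groups (FDR = 0.040) and of −0.96 ± 0.26 between Mild IOP and Control (FDR = 0.20).

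Rps25, which several viral internal ribosome entry sites require, fell most clearly in Mild IOP. Its Control replicates were close together at 355, 378 and 356 scaled FPKM. Mild IOP gave 228, 159 and 222, and Moderate IOP gave 399.9, 371 and 423. The Mild IOP replicates were below all others, and the level fell by 0.85 ± 0.14 on the log2 scale relative to Control (FDR = 0.049) and rose by 0.98 ± 0.14 from Mild to Moderate IOP (FDR = 0.0062). The pyrimidine run printed for Rps25 lies upstream of its annotated start, not at it.

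Rps18, which bridges the head to the large subunit, measured 248, 258 and 234 scaled FPKM in Control, 138, 138 and 195 under Mild IOP and 328, 318 and 260.4 under Moderate IOP. The groups stood in 3 separate ranges, and the log2 fold-change between the IOP groups was 0.95 ± 0.15 (FDR = 0.0086).

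Rps28, which lies near the exit of the mRNA channel, had 183, 281 and 277 scaled FPKM in Control, 209, 82.9 and 139 under Mild IOP and 274, 337 and 309 under Moderate IOP. Mild IOP overlapped with Control in 1 library, and the level differed between the IOP groups by 1.18 ± 0.28 on the log2 scale (FDR = 0.035). Rps15, whose tail reaches toward the decoding site, had 276, 250.2 and 211 for Control, 185, 104 and 152 for Mild IOP and 327, 264 and 262 for Moderate IOP, with a log2 fold-change of 0.98 ± 0.20 between the IOP groups (FDR = 0.018). For Rps15 all Mild IOP replicates lay below the other 6 libraries.

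Other head proteins had group means of 138 to 200.3 scaled FPKM in Control for Rps10, Rps16 and Rps19, and of 76.0 to 107 for Rps3, Rps12 and Rps20. RPS19 is one of the genes mutated in Diamond-Blackfan anaemia, an inherited failure of red cell production. Rps10, Rps19, Rps3 and Rps12 rose between the IOP groups by 0.68 to 1.18 on the log2 scale. Rps12 was lowest in Mild IOP replicate 2 (20.2, against 55.6 and 62.2 in the other Mild IOP replicates), and the fewest derived fragments behind any of its values were 37.6.

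Rps16 and Rps20 were the head proteins that were not called. Rps16, which contacts the tRNA in the P site, had 118 scaled FPKM in Moderate IOP replicate 1 and 212 and 211 in the others, and 131, 65.4 and 137 in Mild IOP, so the groups overlapped. The log2 fold-change was 0.72 ± 0.29 with a 95% interval from 0.09 to 1.35 (FDR = 0.17). Rps20, which is ubiquitinated when ribosomes collide, had 69.2, 149 and 59.0 for Control, 89.7, 72.9 and 118 for Mild IOP and 189, 144 and 149 for Moderate IOP. Its Control replicates spread over much of the range of both IOP groups. The IOP groups differed by 0.79 ± 0.30, with an interval from 0.13 to 1.45 (FDR = 0.15).

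Of the 17 body and platform proteins, 16 rose between Mild IOP and Moderate IOP, with a median log2 fold-change of 0.98. Rps7, a body protein linked to the p53 pathway through its binding of MDM2, was the second gene that fell in Mild IOP. Its levels were 138, 145 and 149 scaled FPKM in Control, 89.1, 62.9 and 99.3 under Mild IOP and 169, 185 and 174 under Moderate IOP. The 3 groups did not overlap. The log2 fold-change was −0.80 ± 0.16 between Mild IOP and Control (FDR = 0.086) and 1.09 ± 0.16 between the IOP groups (FDR = 0.0062). The start of Rps7 printed with the other sequences has a short pyrimidine run marked upstream, and a longer unmarked run lies further from the start.

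Rps23, which sits at the decoding centre and bears on the accuracy of translation, showed the widest gap between the IOP groups apart from Rps27. It measured 209, 243 and 222 scaled FPKM for Control, 124, 83.2 and 154 for Mild IOP and 272, 272 and 319 for Moderate IOP. Each group kept to its own range, and the log2 fold-change between the IOP groups was 1.29 ± 0.19 (FDR = 0.0067). The same 3 separate ranges were seen for Rps9, another protein that bears on accuracy, with 250.2, 316 and 264 in Control, 173, 170.1 and 214 under Mild IOP and 423, 376 and 326 under Moderate IOP. Rps9 rose by 1.01 ± 0.14 between the IOP groups (FDR = 0.0062).

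Rps24, required for processing of the small-subunit rRNA, was the gene nearest to a call between Moderate IOP and Control. It had 88.4, 101 and 92.4 scaled FPKM for Control, 64.3, 59.8 and 84.3 for Mild IOP and 142, 130.0 and 201 for Moderate IOP. The ranges were separate, with a log2 fold-change of 0.72 ± 0.18 between Moderate IOP and Control (FDR = 0.103) and of 1.16 ± 0.18 between the IOP groups (FDR = 0.0077).

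Rps13 and Rps14 also kept 3 separate ranges. Rps13, which faces the large subunit, had 277, 397 and 323 scaled FPKM in Control, 249.9, 175 and 244 under Mild IOP and 411, 482 and 412 under Moderate IOP, a log2 fold-change of 0.98 ± 0.17 between the IOP groups (FDR = 0.011). Rps14, whose human counterpart loses a copy in the 5q− syndrome, had 342, 311 and 307 for Control, 196, 140.2 and 262 for Mild IOP and 411, 371 and 419.7 for Moderate IOP, a log2 fold-change of 1.05 ± 0.19 (FDR = 0.012).

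Rps6, the substrate of S6 kinase and a common readout of mTORC1 activity through its phosphorylation, had 179.6, 198 and 187 in Control, 123, 89.0 and 147 under Mild IOP and 202, 218 and 193 under Moderate IOP. Its mRNA level rose by 0.80 ± 0.16 between the IOP groups (FDR = 0.020). The log2 fold-change of Rps6 between Moderate IOP and Control was 0.12 ± 0.16 (FDR = 0.78), and these groups overlapped. Rps6 has one of the start sites printed with a C and a pyrimidine run.

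Rps2, at the entry of the mRNA channel, had the narrowest of the called rises. It measured 164, 163 and 142 scaled FPKM for Control, 111, 102 and 143 for Mild IOP and 192, 147 and 179 for Moderate IOP. The ranges of the IOP groups were 143 and below against 147 and above, a log2 fold-change of 0.54 ± 0.15 (FDR = 0.064). Rps3a1, Rps21 and Rps26, with group means of 188 to 222 in Control, rose by 0.71 to 1.00 on the log2 scale.

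Rpsa, the laminin receptor precursor that also sits on the back of the body, was the gene that differed least. It had 135, 127 and 96.9 scaled FPKM in Control, 103, 97.3 and 123 under Mild IOP and 106, 137 and 122 under Moderate IOP. All 3 groups overlapped, and the log2 fold-change between the IOP groups was 0.17 ± 0.16 with a 95% interval from −0.17 to 0.52 (FDR = 0.57). Rises of more than 0.52 on the log2 scale lay outside that interval. The annotated transcript of Rpsa, at 1861 nt, is one of the longest of the 32.

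Rps15a had the lowest mean level, with 6.29, 5.93 and 8.09 scaled FPKM for Control, 6.77, 6.49 and 7.65 for Mild IOP and 11.1, 10.3 and 14.3 for Moderate IOP. Moderate IOP lay above both other groups, whose ranges overlapped, and the log2 fold-change between the IOP groups was 0.68 ± 0.20 (FDR = 0.076). Its annotated length inside the files' locus is 5134 nt, the longest of the 32, and its rank by a level per length is to be read with that in view.

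Rps27 could not be read apart from Rps27rt. The files place both symbols on the same stretch of chromosome 3 (Rps27 at chr3:90212667-90213648), and 98.4% of the 100-base windows of the Rps27 transcript also occur in Rps27rt. Rps27, a zinc-finger protein of the platform, had 8.47, 13.3 and 13.2 scaled FPKM in Control, 8.51, 0.352 and 14.2 under Mild IOP and 33.8, 20.6 and 539 under Moderate IOP. Rps27rt had 599, 675 and 513 for Control, 285, 274 and 436 for Mild IOP and 377, 640.3 and 0.134 for Moderate IOP. In Moderate IOP replicate 3 the 2 symbols thus exchanged their levels. The fitted log2 fold-change of Rps27 between the IOP groups, 3.67 ± 1.10 (FDR = 0.079), became 2.25 without that library (FDR = 0.15) and 2.63 without replicate 2 of Mild IOP (FDR = 0.27). The sum of both symbols was 607, 688 and 526 in Control, 293, 274 and 450.2 under Mild IOP and 411, 661 and 539.5 under Moderate IOP. The sum gave a log2 fold-change of −0.87 ± 0.21 for Mild IOP against Control (FDR = 0.19), of −0.19 ± 0.21 for Moderate IOP against Control (FDR = 0.71) and of 0.67 ± 0.21 between the IOP groups (FDR = 0.092).

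Both copies rose between the IOP groups. Rps27l, a p53-induced paralogue of Rps27, shared no window with another gene. It had 60.5, 56.2 and 92.6 scaled FPKM for Control, 68.3, 39.0 and 28.5 for Mild IOP and 72.2, 98.8 and 120.0 for Moderate IOP, with a log2 fold-change of 1.14 ± 0.30 between the IOP groups (FDR = 0.052). Control overlapped with both IOP groups. Rps4x, the X-linked gene of the pair, had 189, 193 and 121 in Control, 141, 94.1 and 142 under Mild IOP and 218, 215 and 188 under Moderate IOP, and rose by 0.73 ± 0.20 (FDR = 0.061). Rps4l had 156, 167 and 138 for Control, 114, 101 and 138 for Mild IOP and 159, 201 and 177 for Moderate IOP, and rose by 0.61 ± 0.14 (FDR = 0.035). The ranges of the IOP groups did not overlap for either gene of this pair. Of the windows of Rps4l, 1.66% were found in another gene, and none of these was in Rps4x. Rps4l lies inside the locus of Tmtc1.

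Processed copies make several values uncertain. In 9 of the 32 genes over 50% of the 100-base windows were also present in another annotated gene, as for Rps6 (83.6%), Rps12 (81.4%), Rps13 (77.6%) and Rps2 (64.7%), and for these 4 the gene that shared most was a pseudogene by its symbol. Windows were cut from the longest RefSeq-matched transcript. For Rps23, Rps10 and Rps16 that was 937, 887 and 1109 nt, against 555, 544 and 615 nt for the lengths used elsewhere. Their shares of 41.5%, 47.7% and 33.9% would be higher on the shorter lengths if the shared windows lie within them. Rps7 (55.9%), called lower in Mild IOP, and Rps18 (57.3%) were also among the 9. No window was shared for Rps3, Rps21 and Rps27l, among others, and these 3 rose between the IOP groups by 0.68, 0.94 and 1.14 on the log2 scale.

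Transcript length moved with these results. The 32 transcripts had a median length of 599.5 nt (327 to 5134 nt), and 29 were under 1000 nt, whereas the median over all tested genes was 2583 nt. Among all tested genes, the 206 with transcripts under 500 nt had a median log2 fold-change of 0.73 between the IOP groups and the 1119 with 500 to 1000 nt one of 0.59. It was 0.18 from 1000 to 2000 nt, −0.10 from 2000 to 4000 nt and −0.17 above. The small-subunit genes within the same classes stood above these medians, at 1.02 for the 6 under 500 nt and 0.98 for the 23 from 500 to 1000 nt. The share of genes called higher in Moderate IOP than in Mild IOP was 34.3% over all genes with transcripts under 1000 nt, against 27 of the 29 small-subunit genes of that length. The genes of these classes were not matched to the 32 for level, and fold-changes on this scale understate those of low genes. Of the 3 longer genes, Rps3 and Rps15a rose and Rpsa was not called. Rps15a counts as longer only by its annotated length of 5134 nt, which was not tested against the reads.

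The same held in the opposite direction between Mild IOP and Control. Genes under 500 nt had a median of −0.44 and those from 500 to 1000 nt one of −0.40, where the small-subunit genes stood at −0.86 and −0.66, and 2.87% of all genes under 1000 nt fell. Across the 12961 tested genes with a length, the Spearman rho between length and log2 fold-change was −0.40 between the IOP groups, 0.33 between Mild IOP and Control and −0.19 between Moderate IOP and Control. Over the 32 genes it was −0.59, 0.45 and −0.25. These are correlations across genes that share libraries and are given as descriptions.

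**Figure D3:**
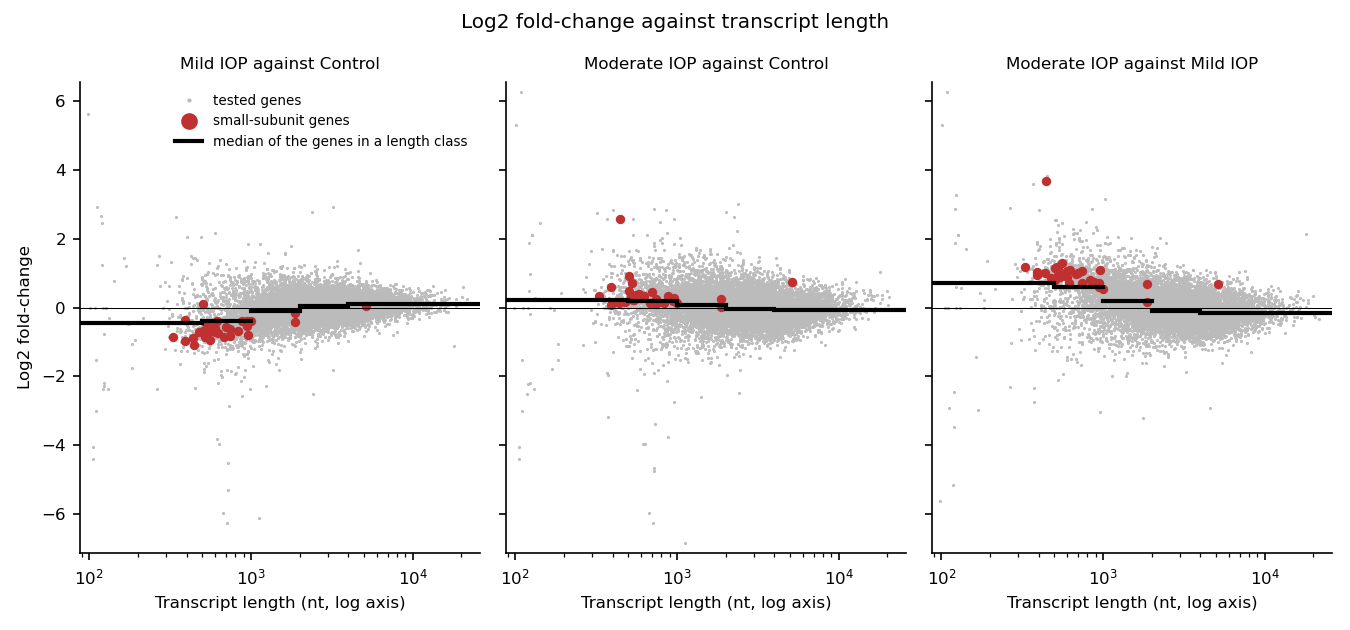
Log2 fold-change against transcript length (log axis, nt) for all tested genes (grey) and the 32 small-subunit genes (red), with black lines at the median of all genes in 5 length classes. The black lines step from 0.73 down to −0.17 between the IOP groups, and most red points lie above them there and below them in Mild IOP against Control.

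When the trend with length was removed from each library, the differences became smaller. The median log2 fold-change of the 32 genes was then 0.25 between the IOP groups (−0.01 over all genes), −0.19 between Mild IOP and Control and 0.06 between Moderate IOP and Control. Between the IOP groups, 4 genes still rose, where 1.6% of all 12961 genes did: Rps7 (0.63 ± 0.11, FDR = 0.019), Rps23 (0.56 ± 0.12, FDR = 0.048), Rps15a (0.86 ± 0.20, FDR = 0.064) and Rps25 (0.35 ± 0.09, FDR = 0.099). None fell between Mild IOP and Control, where 0.123% of all genes did. Rps15a alone rose between Moderate IOP and Control, where 1.09% did, with a log2 fold-change of 0.80 ± 0.20 (FDR = 0.095). Both values of Rps15a after removal rest on its annotated length of 5134 nt. Before removal its log2 fold-change was 0.68 between the IOP groups and 0.73 between Moderate IOP and Control. With the lengths of transcripts that lie wholly inside the locus, 17 genes rose between the IOP groups (3.83% of all genes) with a median of 0.70, so the size of the reduction depended on which length was used. The part of length in the differences was not tested beyond these values.

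The libraries showed the same course one by one. Relative to the mean of the 9 libraries, the median log2 deviation of the small-subunit genes was 0.09, 0.24 and 0.06 in Control, −0.38, −0.85 and −0.22 under Mild IOP and 0.44, 0.41 and 0.40 under Moderate IOP. The 1296 other genes with transcripts under 1000 nt deviated by 0.01, 0.11 and 0.05 in Control, by −0.29, −0.57 and −0.14 in Mild IOP and by 0.31, 0.27 and 0.21 in Moderate IOP. Replicate 2 of Mild IOP was thus lowest for short transcripts at large, and the small-subunit genes lay further from 0 than the other short genes in each IOP library. The other short genes were not matched for level, and deviations of low genes are understated on this scale. With the length trend removed they deviated by −0.12, −0.29 and −0.07 in Mild IOP and by 0.12, 0.15 and 0.14 in Moderate IOP, and the IOP groups remained apart.

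**Figure D4:**
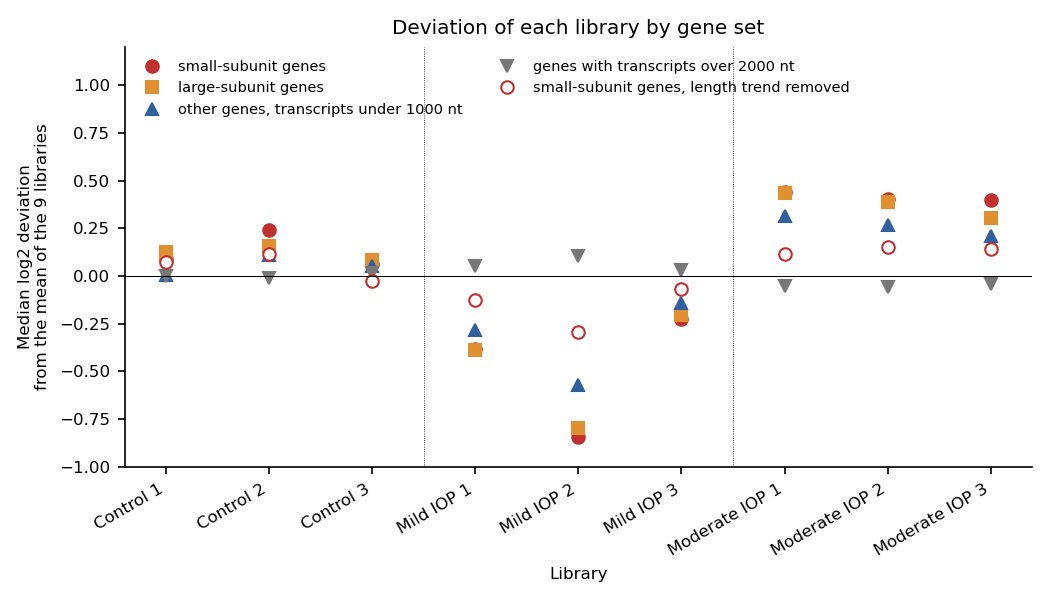
Median log2 deviation of each library from the mean of the 9 libraries, for 5 sets of values named in the legend, with dotted lines between the groups. All filled sets of short transcripts are below 0 in Mild IOP and above 0 in Moderate IOP, and the small-subunit genes with the length trend removed (open circles) keep that sign with smaller values.

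The large-subunit proteins, the partners of these genes in the ribosome, moved alongside them. Of 49 listed, 46 were tested. Between the IOP groups 38 rose (82.6%) with a median log2 fold-change of 0.92. The share that rose was 7.02% over all tested genes and 34.3% over those with transcripts under 1000 nt. In Mild IOP relative to Control 6 fell (13.0%) with a median of −0.63, where 0.39% of all tested genes and 2.87% of those under 1000 nt fell. None was called between Moderate IOP and Control (median 0.25). The largest differences between the IOP groups were those of Rpl26 (2.38 ± 0.93, FDR = 0.17), Rpl34 (1.53 ± 0.37, FDR = 0.038) and Rpl35a (1.48 ± 0.25, FDR = 0.010). The ratio of the summed small-subunit to the summed large-subunit level was 0.627 ± 0.027 for Control, 0.622 ± 0.023 for Mild IOP and 0.648 ± 0.041 for Moderate IOP (SD, n = 3). The group ranges overlapped, at 0.600 to 0.654, 0.599 to 0.646 and 0.605 to 0.687 in that order. The highest ratio, in Moderate IOP replicate 3, includes 539 scaled FPKM of Rps27, a level that the other libraries hold mostly as Rps27rt.

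Fau and Rps27a, which code for ribosomal proteins made as fusions with ubiquitin or a ubiquitin-like protein, rose too. Between the IOP groups they rose by 0.82 ± 0.15 (FDR = 0.014) and by 0.81 ± 0.26 (FDR = 0.097). Of the 29 genes with an Mrps symbol, the naming of the small subunit of the separate mitochondrial ribosome, 13 rose (44.8%) with a median of 0.57. Over all tested genes 7.02% rose. Over those with transcripts under 1000 nt 34.3% rose, with a median of 0.59, and the Mrps genes were not compared with others of their length. They were listed by symbol alone, and whether each protein is part of that ribosome was not checked. Mrps36 had the largest rise, at 1.16 ± 0.24 (FDR = 0.020), followed by Mrps17 and Mrps33.

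Assembly factors, which build the small subunit without being part of it, and other mRNAs with a TOP motif were listed beside them. Among 54 assembly factors of the 40S subunit, 2 rose (Fcf1 and Rps19bp1) and 1 fell (Tbl3) between the IOP groups, with a median of −0.10. These shares, 3.70% and 1.85%, were below those of all tested genes (7.02% and 3.11%). Among 16 other mRNAs that are known for a TOP motif, such as those of elongation factors, 3 rose (18.8%; Tpt1, Naca and Gnb2l1) with a median of 0.34. The differences between these lists were not tested.

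Markers of cell types moved between the same groups. The summed level of the 7 RGC markers had the same order of groups as the small-subunit genes, as did the means of 4 of the 7, and 5 of the 7 rose between the IOP groups. Sncg held most of that sum, with a mean of 928 in Control, 653 under Mild IOP and 1414 under Moderate IOP. The 6 amacrine markers summed to 731 to 765 for Control, 796 to 856 for Mild IOP and 527 to 569 for Moderate IOP, with 2 of the 5 tested lower in Moderate than in Mild IOP. These were Gad1 and Slc6a9, which held most of the sum, and the means of the other 4 were higher in Moderate IOP. The 5 bipolar markers summed to 55.6 to 72.7 in Control, 47.2 to 63.7 under Mild IOP and 83.4 to 96.6 under Moderate IOP, with 1 (Pcp2) higher in Moderate than in Mild IOP. The 5 Müller glia and astrocyte markers summed to 38.0 to 42.1, 34.2 to 44.2 and 50.4 to 86.3 in the same order of groups, with 1 (Glul) higher in Moderate than in Mild IOP. The 5 rod markers summed to 418 to 511 in Control, 279 to 322 under Mild IOP and 274 to 315 under Moderate IOP, so they did not separate the IOP groups. The part of these cell types in the differences of the small-subunit genes was not tested.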

How the data were processed

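RNA sequencing of 9 libraries (3 pools, each split into 3 technical replicates) was deposited by the authors as FPKM per gene locus with confidence bounds. Per the study's methods, reads were aligned to mm10 with bowtie2 and quantified with cufflinks; the submitters' processing notes also name FastQC, Trimmomatic, TopHat2 and Cuffdiff. Here, FPKM were summed per symbol, scaled by median-of-ratios factors and taken as log2(scaled FPKM + 1). Fold-changes on this scale understate those of low genes. The 13070 genes with a mean of at least 0.5 and no failed estimate (2 symbols had one) entered a limma model (version 3.58.1, R 4.3.3) of the 3 group means with all libraries and a variance trend, and p-values were adjusted over all genes by the Benjamini-Hochberg method (FDR, called below 0.1). The fit was tested on simulated data. Their noise was drawn independently for each gene and library, which does not cover shifts that the genes of a library share. Transcript lengths are the exonic bases of RefSeq-matched GENCODE M21 transcripts inside the files' locus (GRCm38), and the length trend was removed per library with a lowess fit (span 0.3). Depth was estimated from how wide the FPKM bounds were, which understates it for abundant genes.

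Genes named with values in each library were the 12 called genes with the smallest FDR, the 3 highest and 3 lowest in mean level, the 3 largest rises and falls of each comparison, Rpsa, Rps6 and the pairs Rps27 with Rps27l and Rps4x with Rps4l; Rps16 and Rps20 were added because they were not called. Some genes that these rules select are not reported here. From each other list at most 3 genes were named, those with the largest difference between the IOP groups. The members and lists were chosen with earlier results of these data known. Alternatives were tried for scaling, pseudocount, filter, groups fitted, replicate block, length and left-out libraries. Sequences were taken from RefSeq promoters of GRCm38.p6.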

Additional observations from a re-analysis of the deposited data

How the results depend on the processing

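Between the IOP groups, the 29 small-subunit genes called higher became 26 without scaling, 22 with only the groups compared in the fit, 17 without the filter on low values, 4 with the length trend removed, 4 with whole RefSeq transcripts as lengths, 17 with transcripts wholly inside the locus, 3 with a lowess span of 0.1, and 14 to 29 when each library was left out in turn. The median of 0.96 became 0.25, 0.30 and 0.25 with the length trend removed, with whole transcripts and with the span of 0.1, and 0.70 with transcripts wholly inside the locus. The 3 further length settings and the sum of Rps27 with Rps27rt were chosen after seeing the data. Between Mild IOP and Control, the 2 genes called lower became 1 without scaling, 0 without the filter, 4 with a mean of at least 5, 0 with only the groups compared, 0, 1, 1 and 0 with the 4 length settings, and 0 to 10 with libraries left out; the median of −0.66 became −0.19, −0.23 and −0.20 (length trend removed, whole transcripts, span of 0.1) and −0.49 (inside the locus). Between Moderate IOP and Control, the 0 genes called higher became 1 with 75th-percentile scaling, a mean of at least 5 and each length setting, and 0 to 1 with libraries left out; the median of 0.29 became 0.062, 0.053 and 0.072, and 0.20 inside the locus. The cause was not tested.

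Replicate numbers only name the splits of a pool: samples of the same number deviated together with correlations of −0.0047 to 0.045. With the replicate as a block the call lower in Mild IOP held for 1 gene, and 29 remained higher between the IOP groups.

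Genes without a call changed sign. With the length trend removed (in order: main length, whole transcripts, span of 0.1), Moderate IOP against Control gave for Rps15 −0.034, −0.058 and −0.040, Rps2 −0.028, −0.040 and −0.035, Rps25 −0.088, −0.0031 and −0.088, Rps29 −0.20, −0.23 and −0.19, Rps6 −0.076, −0.083 and −0.066, and Rpsa −0.017, −0.016 and −0.024. Rpsa had −0.0098 without scaling and Rps27 −0.19 when summed with Rps27rt. Mild IOP against Control gave for Rps15a −0.054, −0.043 and −0.056 (and −0.048 inside the locus) and for Rps24 0.065, 0.072 and 0.056. With the main length, Rps16 went from −0.38 to 0.071 and Rps21 from −0.35 to 0.24 in the same comparison. In Moderate IOP against Control, Rps10 went from 0.22 to −0.021 and Rps26 from 0.12 to −0.15 with that length. With libraries left out, Rps15a ran from −0.031 to 0.16 and Rps20 from −0.15 to 0.52 in Mild IOP against Control, and Rps29 from −0.038 to 0.21 and Rpsa from −0.12 to 0.12 in Moderate IOP against Control. Apart from Rps27, the depth limits Rps27l and Rps12 most, since few fragments stand behind their lowest values. The lowest value of Rps27, in Mild IOP replicate 2, stood beside 274 scaled FPKM of Rps27rt in the same library.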

Other observations

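Several small-subunit genes contain small RNAs inside their loci. In the annotation, Snora33 and Snord100 lie within Rps12, Snora64 within Rps2, Snord15a and Snord15b within Rps3, Snord73a within Rps3a1, Snora62 within Rpsa and Mir3091 within Rps21. Rps25 overlaps with Ccdc84 and Rps15 with Bc1. Reads of such neighbours were not counted apart here.

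The genes lay close together in level, and 27 of the 32 had a mean between 100 and 400 scaled FPKM over the 9 libraries.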
